A study of Homo sapiens with 5 samples.

Results

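Clones numbered 3 were compared with the other clones of the same ovarian cancer cell line. They are the vector clone whose sample title carries the number 3 and the DDB2 clone whose title carries the number 3, so 2 of the 5 arrays of the study, and the other clones are vector clone 1 and DDB2 clones 1 and 2. All 5 are stably transfected clones of A2780-CP70, a human ovarian cancer line with acquired resistance to cisplatin, grown in one serum-supplemented medium with no treatment named. The 2 vector clones carry the empty vector and the 3 DDB2 clones carry a His-tagged DDB2 expression plasmid. DDB2 is a damage recognition protein of nucleotide excision repair. Each clone is a single selected cell line measured on 1 array, so no clone has a replicate, and the DDB2 clones retain the endogenous gene that the vector clones also express.

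The study compared DDB2 clones with vector clones, and the clone number was not one of its conditions. The number was taken up here because measured values of these arrays had shown both clones numbered 3 moving together, so every difference between them and the other clones is a description and carries no test. The number itself has little meaning in the labels. The title of vector clone 3 gives the number 3 and its source name gives clone 2, and no label says that a number marks a shared day, passage or batch. Whether the pair share a culture or handling history cannot be told apart from what the clones themselves carry.

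DDB2 itself checked the constructs. Its level was 7.84 in vector clone 1 and 7.25 in vector clone 3, against 9.87, 8.997 and 9.14 in DDB2 clones 1, 2 and 3, all as RMA values on the log2 scale, the unit of every level below. All 3 DDB2 clones lay above both vector clones, and the number of the clone did not divide them. Over the 34141 transcript clusters that passed a filter on low values, the root mean square difference between arrays was 0.494 for the pair numbered 3, 0.389 for DDB2 clones 2 and 3, and 0.495 for vector clones 1 and 3. The nearest pair of all was vector clone 1 with DDB2 clone 2, at 0.366, and vector clone 1 with DDB2 clone 3, at 0.480, was also nearer than the pair numbered 3. The other 5 pairs lay between 0.392 and 0.614. Across all transcripts DDB2 clone 3 was therefore nearest to DDB2 clone 2, and vector clone 3 was about equally far from DDB2 clone 3 and from vector clone 1, so the pair numbered 3 was not set apart by its overall distance.

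A pair of pathways recurs among the genes described below. When amino acids are short or unfolded proteins gather in the endoplasmic reticulum, cells slow translation and raise the transcription factor ATF4, which switches on genes for amino acid synthesis, amino acid uptake and tRNA charging through an amino acid response element. The chaperones of the endoplasmic reticulum are switched on in parallel by ATF6 and by spliced XBP1 through an endoplasmic reticulum stress element. DNA replication genes are switched on as cells enter S phase by E2F factors, which read a site near the start of many of them.

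A gene was counted where the mean of the clones numbered 3 differed from the mean of the other clones by over 2-fold and both clones numbered 3 lay beyond all 3 other clones. Among 15396 genes, 159 were counted as higher (1.03%) and 266 as lower (1.73%), together 425 (2.76%). Without a minimum size, both clones numbered 3 lay above all others in 3027 genes and below all others in 2932, together 38.7% of genes. The gap between the nearest arrays of both groups had a median of 0.71 on the log2 scale among the higher genes and 0.78 among the lower genes, and it passed 2-fold in 28 and 67 genes. Vector clone 3 was the more extreme of the pair in 115 of the 159 higher genes and in 157 of the 266 lower genes. Among the lower genes the nearest of the other clones was most often DDB2 clone 2, in 154 of 266. In 40 lower genes the mean of the clones numbered 3 was under the filter level of 4.48, where values carry little signal. No higher gene could have this, since the filter asked for 2 arrays above that level and the clones numbered 3 are the highest there. In 5 higher genes, MAP1A and GNAT3 among them, the mean of the other clones was under this level.

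The difference of vector clone 3 from vector clone 1 and that of DDB2 clone 3 from DDB2 clones 1 and 2 use separate arrays. Across the 15396 genes they had a Pearson correlation of 0.39 and a Spearman correlation of 0.44, and the sign was the same in 64.0% of genes. Genes are not independent replicates and the pairing of the clones was chosen from such values, so this is a description. Against DDB2 clone 2 alone the Pearson correlation was 0.49, and against DDB2 clone 1 alone it was 0.26.

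**Figure D1:**
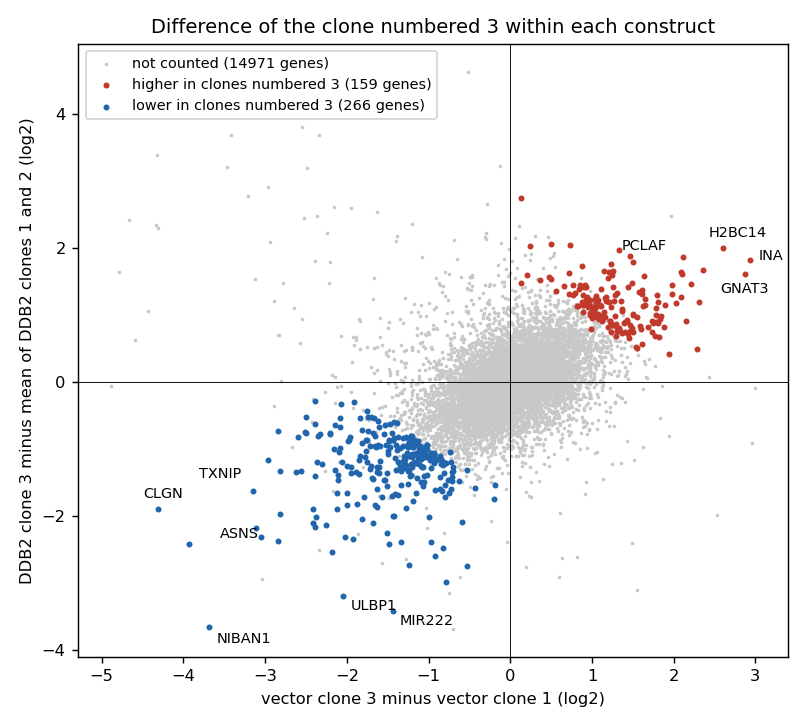
Each point is 1 of 15396 genes, with vector clone 3 minus vector clone 1 on the x axis and DDB2 clone 3 minus the mean of DDB2 clones 1 and 2 on the y axis, both on the log2 scale. The 159 genes counted as higher (red) lie in the upper right and the 266 counted as lower (blue) in the lower left, since the counting rule asks for both differences to run the same way.

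The promoters of counted genes were read for the elements named above. The windows reach from 250 bases before to 50 bases after the annotated start (RefSeq, GRCh38.p14), and both strands were searched. The amino acid response element, with the letters TGATGNAA, was found in 24 of 205 lower genes with a promoter in the table (11.7%), in 1 of 122 higher genes (0.820%), in 194 of 10987 genes that passed the filter (1.77%) and in 1003 of all 27305 promoters (3.67%). The endoplasmic reticulum stress element (CCAAT and CCACG with 9 free bases between them) was found in 22 of all promoters (0.0806%), and 2 of these belong to lower genes, HSPA5 and XBP1. The E2F site, with the letters TTTCCCGC or TTTGGCGC, was found in 8 of the 122 higher genes (6.56%), in 7 of the 205 lower genes (3.41%) and in 3.45% of genes that passed the filter. A match is a description of the letters and not of a bound factor.

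The promoters of 3 lower genes with an amino acid response element, in capitals, are shown because these genes stand for the groups described next: ASNS makes asparagine, CHAC1 degrades glutathione, and AARS1 charges tRNA with alanine. Each run is the 250 bases before the start, 5′ to 3′ on the gene's own strand, at chr7:97872409-97872658 (minus strand), chr15:40953221-40953470 (plus) and chr16:70289507-70289756 (minus) of GRCh38.p14. In CHAC1 and AARS1 the capitals are the reverse complement of the element.
ASNS: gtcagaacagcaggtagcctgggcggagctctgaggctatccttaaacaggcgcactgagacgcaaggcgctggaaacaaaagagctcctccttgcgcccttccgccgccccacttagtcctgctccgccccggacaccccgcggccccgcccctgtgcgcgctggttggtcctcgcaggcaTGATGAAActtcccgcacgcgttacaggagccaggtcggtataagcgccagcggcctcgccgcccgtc
CHAC1: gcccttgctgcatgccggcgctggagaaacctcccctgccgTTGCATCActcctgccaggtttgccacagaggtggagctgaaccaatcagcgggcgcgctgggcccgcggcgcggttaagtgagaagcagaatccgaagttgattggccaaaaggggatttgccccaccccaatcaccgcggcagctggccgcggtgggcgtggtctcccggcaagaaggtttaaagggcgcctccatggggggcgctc
AARS1: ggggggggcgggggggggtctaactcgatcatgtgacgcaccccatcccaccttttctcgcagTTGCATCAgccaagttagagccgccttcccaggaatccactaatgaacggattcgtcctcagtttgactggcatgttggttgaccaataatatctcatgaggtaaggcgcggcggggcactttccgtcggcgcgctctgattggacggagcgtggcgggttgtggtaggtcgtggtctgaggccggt
HSPA5, the major chaperone of the endoplasmic reticulum, is shown for its stress element in capitals (chr9:125241344-125241593, minus strand), which contains the shorter CCAAT box.
HSPA5: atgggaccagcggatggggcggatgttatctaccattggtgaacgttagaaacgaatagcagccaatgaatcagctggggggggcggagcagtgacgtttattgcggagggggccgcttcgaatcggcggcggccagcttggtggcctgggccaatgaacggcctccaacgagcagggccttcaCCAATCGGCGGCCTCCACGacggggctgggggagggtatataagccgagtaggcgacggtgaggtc
MCM3, a subunit of the replicative helicase, and TYMS, which makes thymidylate, are shown as higher genes with the E2F site in capitals (chr6:52284743-52284992, minus strand, and chr18:657403-657652, plus strand). In TYMS the capitals are the reverse complement of the site.
MCM3: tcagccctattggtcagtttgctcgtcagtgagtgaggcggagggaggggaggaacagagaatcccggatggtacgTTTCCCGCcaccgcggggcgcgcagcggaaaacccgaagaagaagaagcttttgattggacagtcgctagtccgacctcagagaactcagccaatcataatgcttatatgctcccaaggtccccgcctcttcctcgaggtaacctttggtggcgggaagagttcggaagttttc
TYMS: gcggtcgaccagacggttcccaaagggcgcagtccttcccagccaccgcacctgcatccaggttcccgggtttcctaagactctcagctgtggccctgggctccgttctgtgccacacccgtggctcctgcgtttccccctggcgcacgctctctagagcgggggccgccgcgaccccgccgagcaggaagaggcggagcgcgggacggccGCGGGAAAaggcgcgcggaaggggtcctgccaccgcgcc

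Genes of the unfolded protein and amino acid stress response were lower in both clones numbered 3. Of 28 measured members of the list, 14 were counted as lower and none as higher, against 1.73% of all genes, and the median difference was -1.06 on the log2 scale, against 0.01 over all genes. The list's median level was 7.16 in vector clone 3 and 7.03 in DDB2 clone 3, against 8.35, 8.05 and 7.96 in vector clone 1 and DDB2 clones 1 and 2. The same order of arrays is used for values of the clones numbered 3 (vector, DDB2) and of the other clones (vector 1, DDB2 1, DDB2 2) below. An array reads RNA of a whole culture, so fewer expressing cells and less RNA per cell cannot be told apart.

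ASNS, asparagine synthetase, whose promoter is printed above, was 7.14 and 6.92 in the clones numbered 3 and 9.99, 9.42 and 9.17 in the other clones, 5.64-fold lower. Every array numbered 3 was over 2 log2 units below every other array for this gene. CHAC1 was 6.33 and 6.02 against 8.45, 8.08 and 7.74, 3.77-fold lower. DDIT3, which encodes the stress factor CHOP, was 4.93 and 5.51 against 7.04, 7.28 and 6.65. ATF3, a stress-induced transcription factor, was 6.16 and 5.85 against 7.78, 7.33 and 7.05. In each of these genes the groups stood well apart. TRIB3, a pseudokinase that binds ATF4, was 6.46 and 6.31 against 7.97, 7.77 and 7.95. ATF4 itself was 8.84 and 8.63 in the clones numbered 3 and 9.75, 9.86 and 9.58 in the other clones, a difference of -0.99 that stopped just short of 2-fold and was not counted.

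Enzymes of amino acid synthesis were uneven. CTH, which makes cysteine, was 4.49 and 5.16 against 6.88, 7.52 and 5.61, and the gap to DDB2 clone 2 was only 0.45. PHGDH, the first enzyme of serine synthesis, was 7.08 and 6.94 against 8.32, 8.12 and 7.96. The later serine enzymes had smaller differences, -0.76 for PSAT1 and -0.35 for PSPH, and neither was counted. SHMT2, a mitochondrial enzyme that passes on the carbon unit of serine, differed by 0.03.

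The endoplasmic reticulum genes of the list divided in the same way. HSPA5 was 11.0004 and 10.77 against 12.69, 12.47 and 11.92, 2.78-fold lower. HERPUD1, which helps to remove misfolded proteins, was 7.84 and 7.85 against 9.84, 9.88 and 9.48. XBP1, whose spliced product drives chaperone genes, was 7.08 and 6.53 against 8.51, 8.47 and 8.59, and DDB2 clone 3 was the lower of the pair. The protein disulfide isomerases did not share this: PDIA6 differed by 0.12 and PDIA4 by 0.67, and PDIA4 was 8.62 and 8.82 in the clones numbered 3 and 8.39, 7.95 and 7.82 in the other clones. Outside the list, genes chosen after their values were seen included sensors of the response: ERN1, which splices XBP1, differed by -1.21, and ATF6, which enters the nucleus after cleavage, by -1.22. SEL1L, an adaptor of the degradation complex, differed by -1.26 and HSPA13, a chaperone of the same family as HSPA5, by -1.601.

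The cytosolic aminoacyl-tRNA synthetases, which join amino acids to their tRNAs, divided between members. This list was added after the values were seen. Of 19 measured, 6 were counted as lower, against 1.73% of all genes, and none as higher, and the median difference was -0.94. SARS1, for serine, was 8.01 and 7.73 against 9.94, 10.05 and 10.08, 4.44-fold lower and the farthest of the family. AARS1 was 9.49 and 9.74 against 11.17, 11.27 and 11.10. MARS1, for methionine, was 8.32 and 8.09 against 9.57, 9.71 and 9.50. CARS1, GARS1 and NARS1 were also counted, at -1.29, -1.26 and -1.17. Members for histidine, glutamine, lysine and the phenylalanine alpha subunit had differences above 0, from 0.18 for HARS1 to 0.40 for FARSA. WARS1, for tryptophan, was 7.82 and 6.27 against 8.63, 9.28 and 7.78, and vector clone 3 overlapped DDB2 clone 2. Without vector clone 3, 10 members were counted in place of 6, and without DDB2 clone 3 there were 5. The 16 measured mitochondrial synthetases held no counted gene and had a median difference of 0.28. The amino acid response element was in the promoter window of 4 of the 6 counted cytosolic members (AARS1, CARS1, MARS1 and NARS1) and of 2 of the 10 with a promoter that were not counted.

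**Figure D2:**
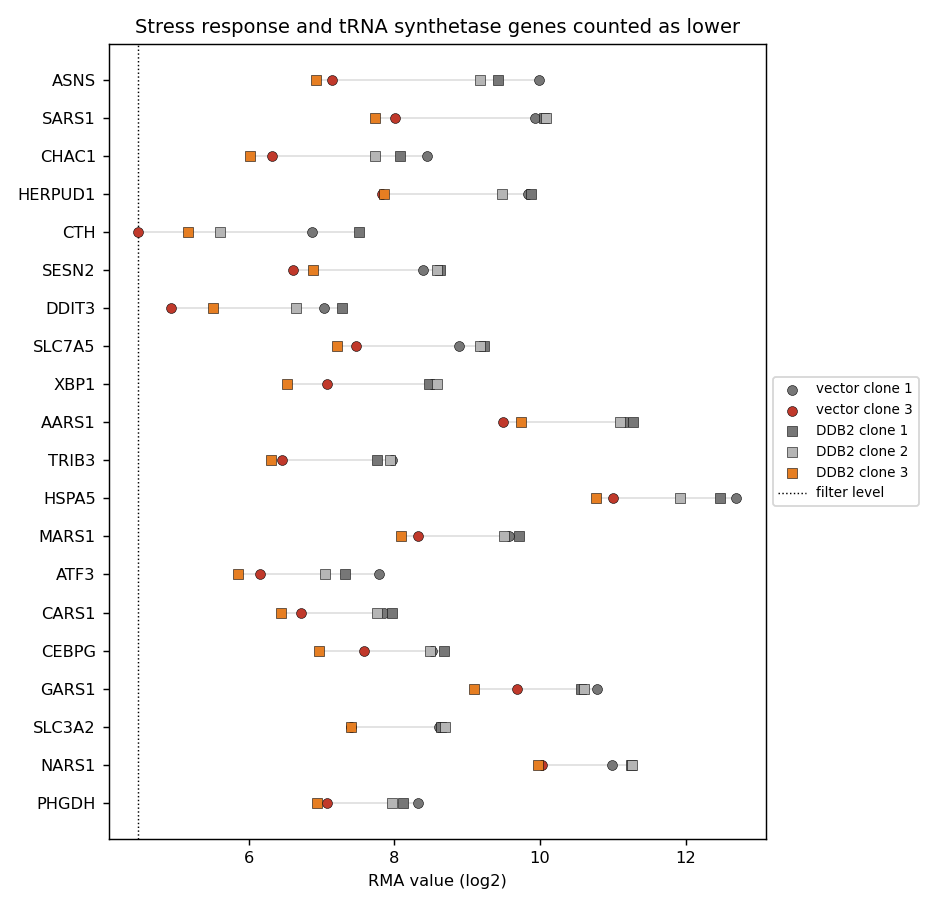
RMA values on the log2 scale (x axis) on each of the 5 arrays for the 20 stress response and tRNA synthetase genes counted as lower, in order of the difference; circles are vector clones, squares are DDB2 clones, and the dotted line is the filter level of 4.48. Both coloured markers, the clones numbered 3, lie to the left of all 3 grey markers in every row, as the counting rule requires, and the nearest arrays are closest for CTH, at a gap of 0.45.

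Amino acid transporters, also listed after the values were seen, ran in both directions. Of 17 measured, 5 were counted as lower and 1 as higher, against 1.73% and 1.03% of all genes, with a median difference of -0.20. SLC7A5 and SLC3A2, the light and heavy chains of a carrier of large neutral amino acids, were 7.47 and 7.21 against 8.89, 9.23 and 9.18 and 7.41 and 7.41 against 8.61, 8.64 and 8.70. SLC43A1, SLC7A1 and SLC1A5 were lower by smaller amounts, -1.13, -1.07 and -1.03. SLC6A6, the taurine carrier, was higher at 6.48 and 6.29 against 5.20, 4.95 and 5.67. SLC7A11, which imports cystine, was 9.53 and 10.21 against 9.67, 8.93 and 9.71, and the groups overlapped. Further genes of amino acid metabolism, chosen after their values were seen, lay on the lower side: GOT1, which makes aspartate, differed by -1.92, and ARG2, a mitochondrial arginase, by -1.99. BCAT1, which transfers the amino group of branched-chain amino acids, differed by -1.70 and by -1.02 without DDB2 clone 3.

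Target genes of p53 had 4 of 26 measured members counted as lower, against 1.73% of all genes, and none as higher, with a median difference of -0.23. GADD45A, a growth arrest gene, was 7.41 and 7.04 against 8.92, 9.50 and 9.07, 3.83-fold lower. SESN2, which restrains mTORC1 when leucine is low and is also in the stress list, was 6.61 and 6.89 against 8.40, 8.62 and 8.59. TNFRSF10B, a TRAIL receptor, and RRM2B, a ribonucleotide reductase subunit used outside S phase, differed by -1.19 and -1.07. The members most often used to read p53 were not counted: CDKN1A was 6.03 and 6.05 against 6.78, 6.32 and 6.06, and MDM2 was 8.47 and 7.95 against 8.18, 7.95 and 7.89. Without DDB2 clone 3, 7 members were counted in place of 4, and without vector clone 3 there were 3.

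The lowest genes of all were led by NIBAN1, a stress-induced regulator of translation and cell death, at 5.19 and 5.00 in the clones numbered 3 against 8.88, 8.79 and 8.51 in the other clones, 12.4-fold lower. Its gap of 3.31 between the nearest arrays was the largest of the 425 genes. CLGN, a chaperone known from the testis, was 4.56 and 6.36 against 8.88, 8.58 and 7.94, so vector clone 3 lay well below DDB2 clone 3. PTPDC1, a phosphatase, was 6.64 and 6.97 against 9.70, 9.23 and 9.33. RAB39B, a small GTPase of vesicle traffic, was 4.88 and 5.48 against 7.98, 7.71 and 7.61. In NIBAN1, PTPDC1 and RAB39B the other clones lay within 0.5 log2 units of each other.

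ULBP1, a stress-induced ligand of the natural killer receptor NKG2D, was 6.19 and 4.82 against 8.23, 8.21 and 7.80, and here DDB2 clone 3 was the lower of the pair. TRPC4, a cation channel, was 4.14 and 5.34 against 6.95, 8.15 and 6.45. TCEAL8 met the rule by a gap of only 0.086: it was 3.25 and 3.23 in the clones numbered 3 and 7.18, 7.93 and 3.34 in the other clones, so DDB2 clone 2 shared the low level. ALDH1L2, a mitochondrial folate enzyme, was 5.95 and 5.29 against 8.14, 9.17 and 6.47, and LOX, which crosslinks collagen, was 4.48 and 4.14 against 5.27, 7.78 and 6.46. In both, DDB2 clone 1 stood highest.

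TXNIP, which binds thioredoxin and limits glucose uptake, was 5.01 and 7.30 against 8.16, 8.64 and 9.19. The difference was -2.51, and -1.37 without vector clone 3. Its relative ARRDC4, chosen after its values were seen, was 4.43 and 6.17 against 6.55, 7.71 and 7.93, with a difference of -2.10 that became -1.22 without vector clone 3. Both are known targets of the glucose-sensing factors MondoA and ChREBP. In both genes DDB2 clones 1 and 2 stood above vector clone 1.

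The microRNA genes MIR221 and MIR222 are neighbours on the X chromosome and were both counted as lower. Their mature products are printed from RefSeq with the seed, bases 2 to 8 and the part that pairs with targets, in capitals (GRCh38.p14, minus strand, chrX:45746180-45746202 and chrX:45747036-45747056). Both share the seed GCUACAU, and among their known targets is the cell cycle inhibitor CDKN1B.
hsa-miR-221-3p: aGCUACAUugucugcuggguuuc
hsa-miR-222-3p: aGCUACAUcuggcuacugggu
MIR222 was 3.68 and 2.92 in the clones numbered 3 and 5.12, 7.16 and 5.51 in the other clones, and its difference of -2.63 became -2.01 without DDB2 clone 1. MIR221 was 3.97 and 2.80 against 4.504, 6.50 and 4.59, and its difference of -1.81 became -1.16 without DDB2 clone 1, the array with the highest level of both. The array measures the locus or precursor and not the mature microRNA, and the values of the clones numbered 3 lie under the filter level for both genes, so no fold is given. CDKN1B was 7.17 and 7.68 in the clones numbered 3 and 7.58, 7.54 and 8.01 in the other clones.

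Neighbouring genes that share sequence or a locus were counted together and are not separate results. The bitter taste receptor genes TAS2R3, TAS2R4 and TAS2R5 lie next to each other on chromosome 7 and differed by -2.31, -2.31 and -2.25. Small nucleolar RNAs of the SNORD115 cluster on chromosome 15 are near-identical copies, and all 10 that passed the filter were counted as lower, from -1.99 for SNORD115-22 to -1.33 for SNORD115-40. For SNORD115-22 the values were 3.52 and 4.88 against 6.49, 6.08 and 5.98. Vector clone 3 was the lower of the pair in this cluster, and without it 6 of these copies moved by over 1.5 times, among them SNORD115-6 to -0.81.

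Other genes counted as lower are named here one by one and, except for GDF15, were chosen after their values were seen. No list of their pathways stands behind them, so they say nothing of how the rest of those pathways ran. MAP1LC3B, the precursor of the autophagosome marker LC3, differed by -1.05 and GABARAPL1, of the same family, by -1.67. The cargo receptor NBR1 differed by -1.31. MAP1LC3B has a near-identical copy, MAP1LC3B2, which differed by -0.997, so their signals may not be separate. BTG1 and HBP1, which restrain proliferation, differed by -1.37 and -1.62. GDF15, a stress hormone of the TGF-beta family and a member of the TGF-beta and BMP list described below, was 5.98 and 5.80 against 7.80, 6.92 and 6.48.

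DNA replication genes were higher in both clones numbered 3. Of 36 measured members, 10 were counted as higher and none as lower, against 1.03% of all genes, 35 had a difference above 0, and the median difference was 0.81. The list's median level was 7.94 in vector clone 3 and 7.68 in DDB2 clone 3, against 6.84, 7.11 and 6.76 in the other clones. With 1 array left out, 7 to 19 members were counted, 7 without vector clone 3 and 19 without DDB2 clone 3. Leaving out an array also leaves fewer arrays for the no-overlap rule to compare.

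GINS2, a subunit of the helicase, was 7.54 and 6.93 in the clones numbered 3 and 5.43, 5.36 and 5.27 in the other clones, 3.69-fold higher. MCM4, of the same helicase, was 8.63 and 8.21 against 6.54, 6.53 and 6.60. The other clones were close together in both genes. The helicase subunits were unequal: MCM3 differed by 1.34, MCM7 by 0.97, MCM5 by 0.86, MCM2 by 0.84 and MCM6 by 0.30. MCM6 overlapped, at 9.002 and 8.66 against 8.36, 8.98 and 8.27.

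The makers of DNA precursors followed. TYMS was 9.82 and 9.73 against 8.18, 8.42 and 7.87, 3.07-fold higher. RRM2, the S phase subunit of ribonucleotide reductase, was 9.15 and 8.68 against 6.84, 7.88 and 7.07, while its counterpart RRM2B was among the lower genes above. CCNE2 and CCNE1, the E cyclins that start S phase, were 6.42 and 6.26 against 4.92, 4.52 and 4.40 and 8.47 and 7.68 against 6.70, 6.81 and 7.17, and the difference of CCNE1 became 0.79 without vector clone 3. The single-strand binding proteins barely differed, with RPA1 at 0.29, RPA2 at 0.19 and RPA3 at -0.02. PCNA, the sliding clamp, was 9.18 and 8.84 against 8.48, 8.54 and 8.22 and was not counted. The E2F site was in the promoter window of 4 of 8 counted members and of 12 of 22 members that were not counted, so it did not part them.

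Partners outside the list were in the same range. PCLAF, which binds PCNA, was 8.71 and 8.31 against 6.59, 6.71 and 6.17, 4.05-fold higher, with a gap of 1.601. E2F7, a repressor that is itself an E2F target, was 7.46 and 7.46 against 5.99, 5.80 and 5.35. Others, chosen after their values were seen, were MCM8, a helicase of recombination, at 1.68, the transcription factors MYBL2 and FOXM1 at 1.43 and 1.06, CDK2 at 1.15 and the proliferation marker MKI67 at 1.10. Of the factors upstream, E2F1 differed by 0.32 and E2F2 by 0.47. TFDP1, the dimer partner of E2F factors, was just past 2-fold, at a difference of 1.01, and became 0.82 without vector clone 3. A list of cell cycle inhibitors, D cyclins, E2F1 to E2F3 and RB genes, which leaves out E2F7 and TFDP1, had none of 15 measured members counted, and their median difference was -0.03.

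Replication-dependent histone genes, listed after the values were seen, had 4 of 20 measured members higher, against 1.03% of all genes, and none lower, with a median difference of 0.55. Without DDB2 clone 2 only 2 members were counted, and without DDB2 clone 3 there were 7. H2BC14 was 9.80 and 9.01 against 7.19, 7.27 and 6.74, 5.04-fold higher and the largest of the list. H2BC11 was 8.07 and 8.41 against 6.92, 6.97 and 6.51, and its difference was 0.86 where the mean of its probe sets was used. H2BC17 and H1-4 differed by 1.07 and 1.09. Histone genes of one class share most of their coding sequence, so signals of single members are uncertain. H2BC21 ran the other way, at 7.28 and 6.74 against 7.16, 8.24 and 7.30.

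Repair genes of the Fanconi and homologous recombination pathways, listed after the values were seen, had 4 of 27 measured members higher, against 1.03% of all genes, and none lower, with a median difference of 0.48. FANCI, a subunit of the complex that marks crosslinked DNA, was 8.57 and 8.31 against 7.09, 7.14 and 6.52. CLSPN, which passes on the replication stress signal, was 7.55 and 7.46 against 5.75, 6.30 and 5.99. RAD54L, a recombination translocase, and BRIP1, a helicase that binds BRCA1, differed by 1.15 and 1.03. BRCA1 was 7.27 and 7.41 against 7.24, 7.33 and 6.67 and was not counted. Without DDB2 clone 3, 7 members were counted, and without DDB2 clone 2 there were 3.

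Mitosis genes had 6 of 33 measured members higher, against 1.03% of all genes, and none lower, with a median difference of 0.56. CCNB1, the mitotic cyclin, was 9.52 and 9.14 against 8.29, 8.35 and 7.67. DLGAP5 and KIF20A, of the spindle, were 9.47 and 9.30 against 8.63, 8.27 and 7.54 and 9.21 and 9.03 against 8.26, 7.90 and 7.61. DDB2 clone 2 was the lowest array in 5 of these 6 genes, and without it only 2 were counted. CDK1, the kinase that CCNB1 activates, was 7.94 and 7.59 against 8.17, 8.21 and 7.65.

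**Figure D3:**
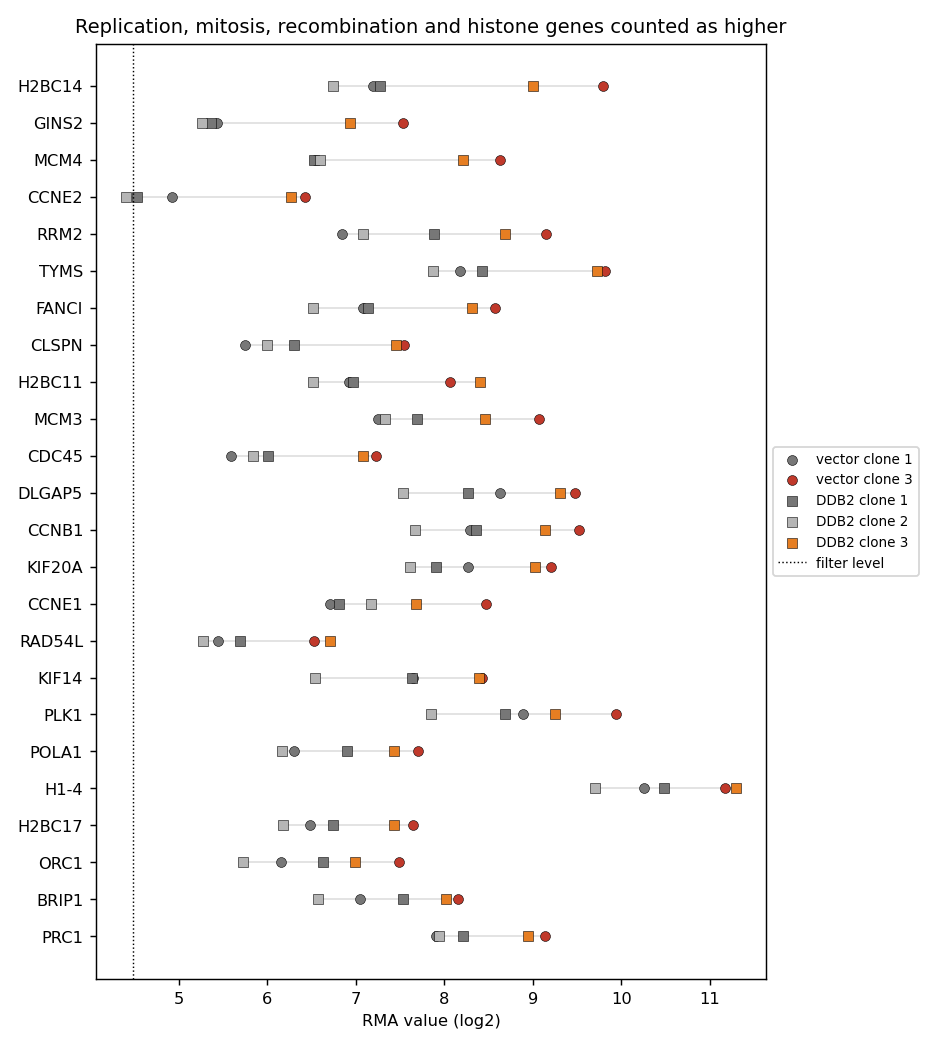
RMA values on the log2 scale (x axis) on each of the 5 arrays for the 24 replication, histone, recombination and mitosis genes counted as higher, in order of the difference; circles are vector clones, squares are DDB2 clones, and the dotted line is the filter level of 4.48. The clones numbered 3 lie to the right of the other clones in every row, as the rule requires, and the grey square of DDB2 clone 2 is the lowest array in most rows.

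Glycolysis genes had 3 of 17 measured members higher, against 1.03% of all genes, and none lower, and 16 of 17 had a difference above 0, with a median of 0.63. PKM, pyruvate kinase, was 9.79 and 9.69 against 8.30, 8.55 and 8.83. ALDOC, an aldolase, was 7.30 and 8.01 against 6.58, 6.47 and 6.28, so DDB2 clone 3 was the higher of the pair. TPI1, which interconverts the triose phosphates, was 8.44 and 8.81 against 7.53, 7.63 and 7.65. LDHA, which makes lactate, was 8.85 and 8.77 against 7.91, 8.29 and 8.30, apart but not by 2-fold. Hypoxia target genes as a list differed by a median of 0.11. LOX was the only member counted among 23 measured, as lower, against 1.73% of all genes.

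Metallothioneins, which bind zinc and copper, had 2 of 8 measured members higher, against 1.03% of all genes, and all 8 differences were above 0, with a median of 0.62. MT2A was 9.26 and 8.81 against 8.03, 6.58 and 7.502. MT1X was 7.74 and 6.69 against 6.19, 5.66 and 5.79, and its difference of 1.34 became 0.81 without vector clone 3, which left only MT2A counted. Without DDB2 clone 3, 4 members were counted. These genes are near-identical copies and their signals are not fully separate. SLC31A1, the copper importer that also carries cisplatin, was lower, at 9.64 and 9.31 against 10.79, 10.64 and 10.40.

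Some genes of the BMP and Notch pathways were counted. ID3 and ID1, which block basic helix-loop-helix factors and are known targets of BMP signalling, were 8.23 and 7.55 against 6.02, 5.97 and 6.18 and 9.72 and 9.06 against 7.93, 8.37 and 7.74. SMAD6, an inhibitor of BMP signalling, was 6.86 and 6.52 against 5.37, 5.75 and 5.67. Of 33 measured TGF-beta and BMP genes, these 3 were counted as higher, against 1.03% of all genes, and GDF15 as lower, against 1.73%. The median difference of the list was 0.04. HES1, a Notch target, was 7.18 and 6.43 against 5.15, 5.45 and 5.05. It was the only gene counted among 24 Notch genes, as higher, against 1.03% of all genes.

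Genes of neuronal intermediate filaments and cytoskeleton were listed after the values were seen. Of 11 measured members, 4 were higher and 1 lower, against 1.03% and 1.73% of all genes. INA, a neurofilament subunit, was 11.19 and 9.91 against 8.26, 6.74 and 9.43, 5.31-fold higher, with a gap of 0.48 to DDB2 clone 2. NES, the filament of neural progenitors, was 7.80 and 7.88 against 5.45, 5.06 and 7.35, where DDB2 clone 2 also stood high. NEFH was 9.32 and 8.30 against 7.17, 7.19 and 7.59, with a difference of 0.98 without vector clone 3. MAP1A was 5.89 and 5.45 against 4.27, 4.12 and 4.02, and it passed the filter only through the clones numbered 3. Its relative MAP1B was lower, at 6.16 and 6.80 against 8.49, 8.07 and 7.06. Genes of one family therefore stood on both sides.

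Several of the largest differences rested on 1 other clone or on 1 of the pair. GNAT3, a taste receptor G protein subunit, was 8.04 and 5.66 against 5.16, 2.76 and 5.32, and its difference of 2.44 became 1.25 without vector clone 3 and 1.61 without DDB2 clone 1. NUP210, a nuclear pore protein, was 8.86 and 8.75 against 7.53, 5.78 and 7.78, with 1.15 without DDB2 clone 1. IFITM2 and IFITM3, membrane proteins induced by interferon, were 9.38 and 9.95 against 8.88, 6.49 and 9.29 and 10.91 and 10.80 against 10.03, 7.74 and 10.40, and differed by 0.58 and 0.64 without DDB2 clone 1. The 2 genes are close copies and may share signal. Of 30 measured interferon-stimulated genes these 2 were higher, against 1.03% of all genes, and IFI44L was lower, against 1.73%. IFI44L was 3.13 and 3.35 against 5.25, 5.11 and 4.36. KCNT2, a potassium channel, was counted as lower through DDB2 clone 2 alone, at 5.01 and 5.41 against 5.72, 5.68 and 8.08, and differed by -0.49 without it. PTDSS1, which makes phosphatidylserine, was 8.40 and 7.86 against 6.43, 6.31 and 6.53 and rested on no single array. Of all 425 genes, 76 moved by over 1.5 times when 1 array was left out, 48 of them without vector clone 3. None changed sign, which the no-overlap rule fixes in advance.

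**Figure D4:**
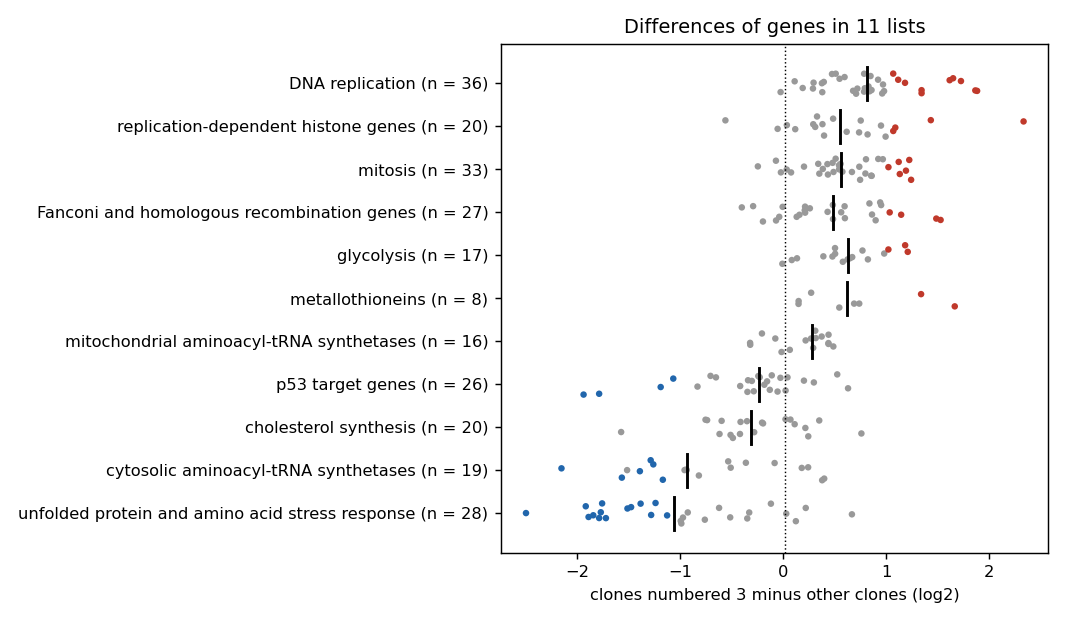
Each point is 1 measured gene of a list (rows, with the number measured) placed by the mean of the clones numbered 3 minus the mean of the other clones on the log2 scale; red and blue mark genes counted as higher and lower, the black bar is the list's median and the dotted line the median of all genes, 0.01. DNA replication genes lie farthest to the right, at a median of 0.81, and the stress response genes farthest to the left, at -1.06.

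Of the 49 lists drawn up with the design, 30 held no counted gene, and their medians ran from -0.32 to 0.20. Cholesterol synthesis genes had the lowest of these, with -0.50 for vector clone 3 against vector clone 1 and -0.03 for DDB2 clone 3 against DDB2 clones 1 and 2. Some other lists held 1 counted member each, against 1.73% of all genes for lower and 1.03% for higher. On the lower side CYP4V2, a fatty acid hydroxylase, was 1 of 20 measured, at -1.16. ESRP1, an epithelial splicing factor, was 1 of 16, at -1.54, with both clones numbered 3 under the filter level. Of those 16, 9 had a difference above 0. ZNF571, a zinc finger gene, was 1 of 61, at -1.27. On the higher side were ANXA6, an annexin, 1 of 20, at 1.01, and TEX15, a germ cell gene, 1 of 10. TEX15 differed by 1.09, and by 0.70 without vector clone 3.

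Genes at the threshold had the following values. Just inside on the higher side were FOS, an immediate early gene, at 1.0006 and LPP-AS2, an antisense transcript, at 1.0021, and just outside were MT1JP, a metallothionein pseudogene, at 0.9988 and ZC3HAV1L at 0.9981. Without DDB2 clone 3 the difference of FOS was 0.59 and that of LPP-AS2 0.43, and without vector clone 3 that of LPP-AS2 was 1.57. Just inside on the lower side were AVPI1 at -1.0001 and NBR2 at -1.0003, and just outside were MAP1LC3B2 at -0.9968 and TBRG1 at -0.9993. The difference of AVPI1 was -0.57 without DDB2 clone 1. A further 28 genes were over 2-fold higher and 48 over 2-fold lower with overlapping arrays, and were not counted.

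Transcript clusters with no gene symbol followed the same rule. Of 16739 that passed the filter, 115 were higher (0.687%) and 244 lower (1.46%), and none of them is named here. Over all 34141 clusters, 305 were higher and 535 lower.

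No whole chromosome stood apart in its median. The median difference of the 23 chromosomes with 50 or more measured genes ran from -0.02 to 0.07. In 16 stretches on 10 chromosomes the median over 25 neighbouring genes passed 0.3 in size on the lower side, and in 1 stretch, from RNF144B to BTN2A1 on chromosome 6, on the higher side, which takes in part of the histone gene cluster. The 16 lower stretches held 577 genes with medians from -0.37 to -0.20 and 48 of the counted lower genes. Over all genes 1.73% were counted as lower. The stretches were picked for low medians, so a larger share inside them was built in. The stretch from LOC283683 to NSMCE3 on chromosome 15 held 50 genes with a median of -0.35 and 10 counted genes, where the SNORD115 copies lie. The stretch from ZNF667 to ERVK3-1 on chromosome 19, a run of zinc finger genes, had 39 of 44 genes below 0. Along KATNAL2 to LINC-ROR on chromosome 18, vector clone 3 was lower by a median of 0.34 and DDB2 clone 3 was not, at 0.05.

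Markers of other cell types were uneven in level. PTPRC, the pan-leukocyte marker, was between 2.32 and 2.41 on all 5 arrays, and PECAM1, of endothelium, between 2.84 and 3.45, both under the filter level. Of the lists, 3 of 11 immune, 6 of 9 endothelial and 4 of 8 fibroblast markers passed the filter, among them the endothelial markers EGFL7, between 6.18 and 6.37, and CLDN5, between 5.87 and 6.03. POSTN, a matrix protein of fibroblasts, was 6.90 and 5.23 in the clones numbered 3 and 9.94, 10.64 and 5.70 in the other clones, a difference of -2.69 with overlapping arrays, since it was high in vector clone 1 and DDB2 clone 1. FBLN1, of the same list, was 6.83 and 6.46 against 6.203, 5.74 and 5.95, apart but by under 2-fold, and DCN, which did not pass the filter, was 6.02 in DDB2 clone 1 and from 2.50 to 4.01 on the other arrays. The summed level of the immune list was 44.0 to 44.2 in the clones numbered 3 and 42.1 to 42.8 in the other clones, and that of the endothelial list 40.7 to 41.4 against 40.0 to 40.6. CD68, a lysosomal protein of the immune list that tumour cells also make, was 7.21 and 7.33 against 6.65, 6.12 and 6.30. No gene of the immune, endothelial or fibroblast lists was counted. Summed epithelial markers were 93.9 to 95.7 against 92.6 to 99.1, mesenchymal markers 97.1 to 97.4 against 94.95 to 100.9, and fibroblast markers 31.6 to 34.6 against 31.6 to 42.6. Of the epithelial markers 16 of 18 passed the filter, among them KRT18, between 6.75 and 8.67, and EPCAM, between 5.29 and 7.26. CDH1, between 4.30 and 4.44, and GRHL2, between 3.62 and 3.76, did not pass. Of the ovarian and Müllerian lineage markers 8 of 13 passed, among them PAX8, between 5.16 and 5.28, while CDH6, EMX2 and ESR1 did not. The part of other cells in the results was not tested. Background probes on the arrays had medians from 2.45 in vector clone 1 to 2.57 in vector clone 3, the array with the lowest overall median, 4.46 against 4.47 to 4.51.

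Whether the difference of the clone numbered 3 was the same in both constructs could be tested, as DDB2 clone 3 minus DDB2 clones 1 and 2, less vector clone 3 minus vector clone 1. The test has 1 residual degree of freedom, from DDB2 clones 1 and 2, and is weak. No gene had a Benjamini-Hochberg adjusted p under 0.05 in limma, the smallest adjusted p was 0.916, and 737 genes (4.79%) had an unadjusted p under 0.05, of which 318 (2.07%) were also over 2-fold. Of the 425 counted genes, 26 higher and 39 lower ones were among the 737, and 13 and 30 among the 318. CLGN was one, with a difference between constructs of 2.42 ± 0.54 (SE, adjusted p = 0.916 in limma). FOS differed by 1.16 ± 0.19 and RAB39B by 0.93 ± 0.20 in the same test, with the same adjusted p. Not passing the threshold does not show that both constructs behaved alike. The smallest p belonged to MIR99AHG, a microRNA host gene that was not counted, at 3.42 in vector clone 3 and from 6.22 to 7.04 on the other arrays. BST2, which tethers virus particles, was 6.92 in vector clone 3 and from 4.005 to 4.48 on the other arrays, so it set 1 clone apart and not the pair.

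The comparison that the study was built for, DDB2 clones against vector clones, called 56 genes (0.364%) at over 2-fold and an unadjusted p under 0.05 in limma, 26 higher and 30 lower. At an unadjusted p under 0.05 alone there were 449, and at an adjusted p under 0.05 none, with the smallest adjusted p at 0.703. None of the 425 counted genes was among the 56, and none had an unadjusted p under 0.05. This follows in large part from the counting rule, which puts a vector clone and a DDB2 clone on the same side and spreads both groups. The median DDB2 minus vector difference was -0.30 in the higher genes and 0.31 in the lower genes. The clones numbered 3 are 1 of 2 vector clones and 1 of 3 DDB2 clones. Vector clone 3 was the more extreme of the pair in 115 of the 159 higher and 157 of the 266 lower genes. How far each shaped these medians was not tested. For ASNS the DDB2 minus vector difference was -0.06 (adjusted p = 0.999 in limma), against -2.50 for the clones numbered 3. For MCM4 it was -0.47 (adjusted p = 0.999 in limma), against 1.87.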

How the data were processed

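RNA of 5 clones was measured on Affymetrix Human Transcriptome Array 2.0. Values were deposited by the authors on the log2 scale after RMA background correction, normalization and summarization, 1 column per array. Arrays have no read depth, so precision depends on how many were run. Of 70523 rows, 2995 control rows were left out. Of 67528 transcript clusters, the 34141 above the 50th percentile of all values (4.48) on at least 2 arrays were kept. Clusters with 1 symbol (23781 of 67528, with 1543 holding several and 42204 none) were named through RefSeq, 21497 by gene number, and the cluster with the highest mean stood for a gene, giving 15396 genes. The array's genome build is not given in the sources used here, so no gene coordinates are printed, and promoter and microRNA sequences carry those of GRCh38.p14.

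Clones numbered 3 were described by the 2-fold and no-overlap rule with no test. DDB2 clones against vector clones, and the difference between constructs, were fitted with limma 3.58.1 (R 4.3.3). The p-values were adjusted over all 34141 kept transcript clusters by Benjamini-Hochberg. They measure only the spread between clones. The limma fits and the counting rule were tested on simulated data. The members, lists and rules were chosen with earlier results of these data known. Genes named are the 12 largest differences each way, up to 4 counted members of each list, the 2 nearest the threshold on each side, ends of chromosome stretches, DDB2 and NEDD4L, and others said to have been chosen after their values were seen. Motifs and list members named beyond these were also chosen so. Alternatives were other filters, scalings, folds, weights and leaving out each array.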

Additional observations from a re-analysis of the deposited data

Results flagged for a closer look

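NEDD4L, an E3 ubiquitin ligase that limits TGF-beta signalling, was singled out because the clone numbered 3 moved in opposite directions in the constructs. Only the named genes were screened for this, and the no-overlap rule forbids it in every counted gene. Over all genes the sign was the same in 64.0%, so opposite movement is not particular to NEDD4L. Its level was 5.37 in vector clone 1 and 6.03 in vector clone 3, a difference of 0.65 on the log2 scale, and 4.09, 4.16 and 3.99 in DDB2 clones 1, 2 and 3, so that DDB2 clone 3 lay below the mean of the other DDB2 clones by -0.14. The difference between constructs was -0.79 ± 0.20 (SE, unadjusted p = 0.0316, adjusted p = 0.916 in limma), and the 3 DDB2 values lie under the filter level of 4.48. No group held 4 or more arrays, so single arrays far from their group were not looked for.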

How the results depend on the processing

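The 159 higher and 266 lower genes became 305 and 535 over all transcript clusters, 683 and 885 at a fold of 1.5, and 19 and 62 at a fold of 3. With the nearest arrays over 2-fold apart, a rule chosen after seeing the data, there were 28 and 67. Leaving out 1 array gave 173 to 294 higher and 234 to 456 lower genes. Without vector clone 3 there were 272 higher and 303 lower, of which 101 and 188 were among the counted genes, and without DDB2 clone 3 there were 294 and 456, of which 138 and 234 were. Other filters, scalings, probe set summaries and weights stayed within 1.5 times, and quantile normalization gave 183 and 246. Of 929 values under these alternatives of the 78 named genes that were counted, 42 moved by over 1 SD and none changed sign. The no-overlap rule fixes the sign in advance where an array is left out or the constructs are weighted equally.

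The 56 genes called between DDB2 and vector clones became 34 (22 higher, 12 lower) with a filter at the 75th percentile and 45 to 230 with 1 array left out, 230 without vector clone 1 and 217 without DDB2 clone 1. The cause was not tested. With the title number as a replicate block 62 genes were called, 27 higher and 35 lower. Deviations from the construct mean correlated at 0.13 for the arrays numbered 1 and 0.34 for those numbered 3, and at 0.25 for vector clone 1 with DDB2 clone 2, more than for the arrays numbered 1. There are 2 pairs only, and nothing in the labels pairs the numbers. The count of genes whose clone difference differs between constructs was 0 under every alternative that could be fitted, and without any 1 array that test could not be fitted.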
